A study of Mus musculus with 6 samples.

Results

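To describe the red blood cell transcripts present in infarcted mouse hearts, 8 genes were chosen by name from the deposited expression table: the adult alpha globins *Hba-a1* and *Hba-a2*, the adult beta globins *Hbb-bs* and *Hbb-bt*, and the red cell genes *Alas2*, *Slc4a1*, *Ahsp* and *Epb42*. Of these, 7 are among the 54532 genes of the table analysed here, while *Ahsp* was not analysed here. The samples were 3 WT hearts and 3 hearts labelled TSLPR KO, called *Crlf2*-/- hearts below, from C57BL/6J mice. Both groups underwent ligation of the left anterior descending coronary artery to induce myocardial infarction (MI), and tissue was taken on day 7. The study's results describe this tissue as peri-infarcted and infarcted heart tissue, while its methods speak of infarcted hearts. How much of each region a sample held is not given in the sources used here. By the study's methods the C57BL/6J mice that were bought were adult males. The sex and age of the *Crlf2*-/- mice are not given in the sources used here. *Crlf2*, the gene knocked out, encodes the receptor chain for the cytokine TSLP (TSLPR). The study bought C57BL/6J mice from a supplier, and another company generated the *Crlf2*-/- mice. Whether the WT hearts came from bought mice or from littermates is not given in the sources used here. An effect of supplier therefore cannot be told apart from one of genotype. Whether the hearts were flushed of blood before RNA extraction is not given in the sources used here.

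Haemoglobin is built from alpha and beta globin chains and haem. Circulating red cells have lost their nucleus, but young red cells (reticulocytes) still carry globin mRNA together with mRNA of *Alas2*, the erythroid enzyme that starts haem synthesis. In a solid tissue, globin mRNA is therefore usually read as a trace of blood held in the vessels or spilled into the tissue. *Slc4a1* (band 3, the anion exchanger) and *Epb42* (protein 4.2) encode proteins of the red cell membrane. In bulk tissue, fewer red cells and less RNA per red cell cannot be told apart.

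The 6 libraries held 18508646 to 19682428 fragments on the genes of the table. The targeted gene *Crlf2* was present at 26.6, 25.1 and 21.6 FPKM (fragments scaled to gene length and library depth) in the 3 WT libraries and at 13.2, 18.7 and 19.8 FPKM in the 3 *Crlf2*-/- libraries. Its transcripts were thus lower but not absent in the libraries labelled TSLPR KO, and a value per gene does not show which exons were read. The lowest WT library was only 1.09-fold above the highest *Crlf2*-/- library. The log2 fold change was -0.52 ± 0.17 (SE), with an adjusted p = 0.521 from limma (Benjamini-Hochberg, over all genes tested). The extraction note in the labels names another tissue, retina, whereas the tissue label is heart. As a marker of heart muscle, the cardiac actin gene *Actc1* had mean levels of 1093 ± 367 FPKM in WT and 667 ± 219 FPKM in *Crlf2*-/- libraries (SD, n = 3).

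The globin genes come in near-identical pairs, which limits how their fragments can be assigned. All 7 genes have the same start and end in the table as in GENCODE M21 (GRCm38). *Hba-a1* lies on the plus strand of chromosome 11 from 32283511 to 32284465 and *Hba-a2* on the same strand from 32296489 to 32297298. *Hbb-bs* occupies chromosome 7 from 103826534 to 103828096 on the minus strand, and *Hbb-bt* the same strand from 103812524 to 103813996. The coding sequences of *Hba-a1* and *Hba-a2* are both 429 bases long and differ at 1 base (C381T, counted from 1 at the A of the start codon, the base of *Hba-a1* first). Those of *Hbb-bs* and *Hbb-bt* are both 444 bases long and also differ at 1 base (C417T, the base of *Hbb-bs* first). The 60 coding bases around each differing base, from GENCODE M21 transcripts, are shown, and the capital marks the differing base. Within the coding sequence, only a fragment that covers this base can be told apart within a pair. The stretches run from coding base 351 to 410 for the alpha genes and from 385 to 444 for the beta genes.
Hba-a1: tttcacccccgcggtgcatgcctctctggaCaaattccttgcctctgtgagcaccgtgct
Hba-a2: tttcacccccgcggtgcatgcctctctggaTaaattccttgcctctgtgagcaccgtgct
Hbb-bs: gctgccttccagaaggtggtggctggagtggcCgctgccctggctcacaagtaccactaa
Hbb-bt: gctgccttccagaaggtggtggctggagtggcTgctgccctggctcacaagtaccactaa
Of the 566 different windows of 100 bases in the annotated *Hba-a2* transcripts, 79.5% also occur in *Hba-a1*, and of the 604 such windows in *Hbb-bt*, 54.8% also occur in *Hbb-bs*. No window was shared between *Hba-a1* and *Hbb-bs* (0 of 711). By the study's methods the reads were longer than 100 bases and paired, so a fragment can reach a differing base that a window misses. How fragments that match both genes of a pair were treated is not given in the sources used here. The split within a pair is therefore uncertain. If fragments that match both genes were left out, sums over a pair, the globin share and comparisons of beta with alpha genes would be affected too. Shared windows were more frequent in the alpha pair (63.3% of those of *Hba-a1*) than in the beta pair (49.7% of those of *Hbb-bs*). The values of the globin genes are given with these limits.

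The promoters of genes that were lower together are shown next, from 250 bases before to 50 bases after the RefSeq start (GRCm38.p6), for 4 of the 6 members with an entry. Capitals mark matches, searched on both strands, to letters that regulators of red cell genes are known to bind. These are AGATAA and, for the same family of GATA factors, TGATAA, together with CACCC, which KLF1 binds. The general promoter element CCAAT was searched as well, and so was TATAAA, a form of the TATA box. Other forms of the TATA box and of the GATA site were not searched. The matches in these windows abut in places but do not overlap. The windows are chr11:32283422-32283721 (plus strand) for *Hba-a1*, chr7:103827879-103828178 (minus strand) for *Hbb-bs*, chr7:103813874-103814173 (minus strand) for *Hbb-bt* and chrX:150547167-150547466 (plus strand) for *Alas2*.
Hba-a1: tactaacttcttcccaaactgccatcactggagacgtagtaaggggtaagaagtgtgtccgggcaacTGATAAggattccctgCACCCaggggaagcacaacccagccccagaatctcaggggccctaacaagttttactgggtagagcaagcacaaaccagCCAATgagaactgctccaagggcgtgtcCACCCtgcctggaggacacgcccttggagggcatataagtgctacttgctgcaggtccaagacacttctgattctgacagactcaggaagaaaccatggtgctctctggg
Hbb-bs: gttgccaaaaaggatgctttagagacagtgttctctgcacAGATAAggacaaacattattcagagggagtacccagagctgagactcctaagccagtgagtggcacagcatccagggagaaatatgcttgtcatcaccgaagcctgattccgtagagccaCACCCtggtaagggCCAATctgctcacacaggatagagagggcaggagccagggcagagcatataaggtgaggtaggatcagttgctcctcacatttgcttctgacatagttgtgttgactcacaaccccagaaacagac
Hbb-bt: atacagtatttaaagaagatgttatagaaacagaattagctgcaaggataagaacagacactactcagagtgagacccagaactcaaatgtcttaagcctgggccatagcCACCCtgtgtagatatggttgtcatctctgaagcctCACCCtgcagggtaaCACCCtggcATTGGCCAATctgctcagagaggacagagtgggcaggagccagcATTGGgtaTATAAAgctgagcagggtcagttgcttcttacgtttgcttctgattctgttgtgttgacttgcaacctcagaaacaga
Alas2: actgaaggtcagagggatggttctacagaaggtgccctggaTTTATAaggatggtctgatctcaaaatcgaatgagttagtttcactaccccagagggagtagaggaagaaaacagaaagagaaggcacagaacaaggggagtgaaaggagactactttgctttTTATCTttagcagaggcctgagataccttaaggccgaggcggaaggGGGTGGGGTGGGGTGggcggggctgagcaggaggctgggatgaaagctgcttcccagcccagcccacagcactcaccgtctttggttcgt
The *Hba-a2* window matched that of *Hba-a1* at 297 of 303 aligned positions, while the *Hbb-bs* and *Hbb-bt* windows matched at 223 of 308. AGATAA or TGATAA was found in 5 of the 6 windows, all but that of *Hbb-bt*, and in 18.6% of all 32851 RefSeq promoter windows of this length. CACCC was found in 5 of the 6 windows, all but that of *Epb42*, and in 57.5% of all windows. CCAAT was found in the 4 globin windows and in 37.4% of all windows. TATAAA was found in the windows of *Hbb-bt*, *Alas2* and *Epb42* and in 13.6% of all windows. In *Hbb-bt* it began at base -28 from the start, on the strand of the gene. In *Alas2* (-209) and *Epb42* (-126) it lay farther from the start and on the opposite strand. These matches describe letters in a window and are not measured binding sites.

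Of the 7 genes in the table, 5 had enough fragments to be tested: the 4 globins and *Alas2*. All 5 were lower in *Crlf2*-/- than in WT hearts in these libraries, by 2.04-fold to 2.56-fold in mean FPKM, and no *Crlf2*-/- library reached the level of a WT library. None of the 5 passed the threshold after adjustment over all genes. Each of the 5 had at least 64 fragments in every library of both groups, so none was tested only because it was high in WT.

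The beta globin *Hbb-bs* was the most abundant member per length. It stood at 139, 185 and 112 FPKM in the 3 WT libraries and at 40.3, 87.4 and 54.9 FPKM in the 3 *Crlf2*-/- libraries. WT replicate 2 was the highest and *Crlf2*-/- replicate 1 the lowest, and the groups did not overlap, with the lowest WT library 1.28-fold above the highest *Crlf2*-/- library. The mean was 145 ± 36.8 FPKM in WT against 60.9 ± 24.1 FPKM in *Crlf2*-/- hearts (SD, n = 3). On the log2(FPKM + 0.1) scale, after scaling between libraries, the difference was -1.29 ± 0.29 (SE), and limma gave an adjusted p = 0.254 (Benjamini-Hochberg, over all genes tested).

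The alpha globin *Hba-a1* followed closely. Its values were 101, 143 and 84.2 FPKM in WT and 32.5, 59.0 and 40.5 FPKM in *Crlf2*-/- libraries. The order of the 6 libraries was the same as for *Hbb-bs*. The means were 109.6 ± 30.5 and 44.0 ± 13.6 FPKM (SD, n = 3), and the log2 fold change was -1.32 ± 0.25 (SE, limma adjusted p = 0.191). *Hbb-bs* exceeded *Hba-a1* in 6 of 6 libraries by 1.24-fold to 1.48-fold. The ratio within a library averaged 1.33 ± 0.0447 in WT and 1.36 ± 0.121 in *Crlf2*-/- hearts (SD, n = 3).

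The other gene of each pair was listed at a lower level. *Hbb-bt* was at 13.9, 21.99 and 15.6 FPKM in WT and at 5.32, 8.29 and 6.5002 FPKM in *Crlf2*-/- libraries, which is -1.34 ± 0.20 on the log2 scale (SE, limma adjusted p = 0.11). *Hba-a2* was at 11.9, 16.3 and 12.2 FPKM in WT and at 5.61, 5.46 and 6.12 FPKM in *Crlf2*-/- libraries. For *Hba-a2* the 3 *Crlf2*-/- libraries lay close together, and the lowest WT library was 1.95-fold above the highest *Crlf2*-/- library, the widest gap among the 5 tested genes. Its log2 fold change was -1.20 ± 0.14 (SE, limma adjusted p = 0.0637), the smallest adjusted p of the members and rank 4 of all genes tested by unadjusted p. *Hbb-bt* exceeded *Hba-a2* in 5 of 6 libraries (17.2 ± 4.26 against 13.5 ± 2.47 FPKM in WT, SD, n = 3). The ratio within a library averaged 1.26 ± 0.0911 in WT and 1.18 ± 0.301 in *Crlf2*-/- hearts (SD, n = 3).

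*Alas2* (plus strand of chromosome X, from 150547375 to 150570638), the only tested member outside the globins, was far lower in level. It was at 2.55, 3.26 and 2.25 FPKM in WT and at 1.20, 1.36 and 1.38 FPKM in *Crlf2*-/- libraries. WT replicate 2 was again the highest library and *Crlf2*-/- replicate 1 the lowest. The log2 fold change was -0.96 ± 0.17 (SE, limma adjusted p = 0.149). These values rest on 118 to 170 fragments in WT and 64 to 76 in *Crlf2*-/- libraries.

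**Figure D1:**
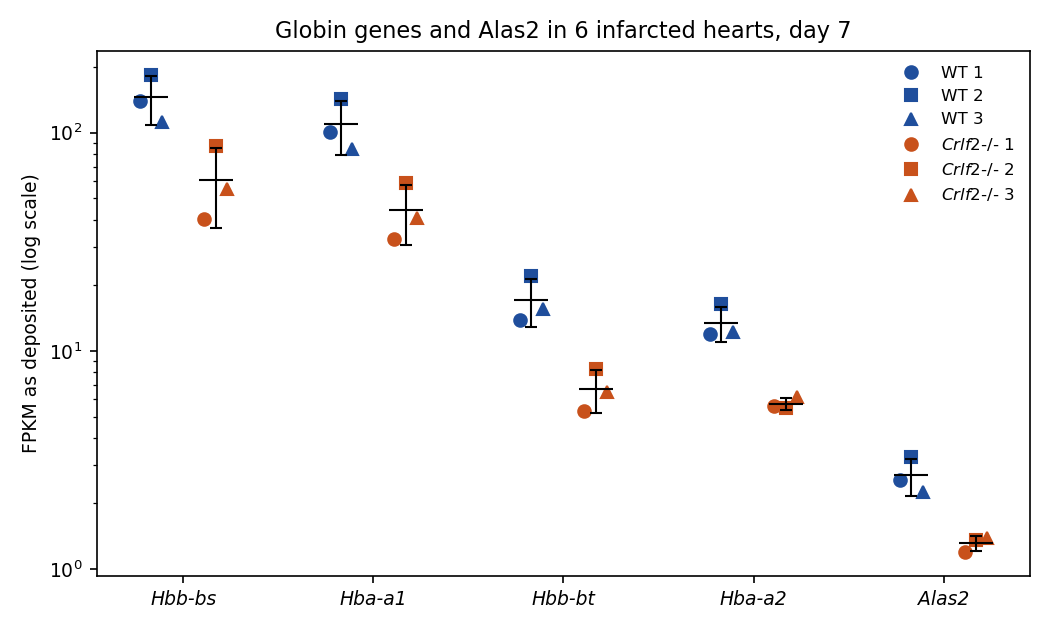
Deposited FPKM (log axis) of the 5 tested genes in each of 3 WT and 3 *Crlf2*-/- libraries; symbols are libraries, and the bar and whiskers give the mean and SD of a group. For each gene all *Crlf2*-/- symbols lie below all WT symbols, and WT replicate 2 is the highest library.

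The membrane genes were near the limit of detection. *Slc4a1* (minus strand of chromosome 11, from 102348824 to 102366203) was read by 7, 13 and 8 fragments in the WT libraries against 0, 9 and 4 in the *Crlf2*-/- libraries, and the groups overlapped (exact permutation test, two-sided, p = 0.3). *Epb42* (minus strand of chromosome 2, from 121017891 to 121037072) was read by 1 fragment in each WT library and by 5, 1 and 0 in the *Crlf2*-/- libraries (p = 1.0 by the same exact test). Both stayed below the filter of 10 fragments in 3 libraries, so a difference was not detectable at this depth, and a count of 0 allows up to 3 fragments.

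Of the 15520 genes tested with limma, 2 genes or 0.0129% were called, meaning an adjusted p no higher than 0.05 with a log2 fold change of 0.5 or more in either direction, and 0 of the 5 members were. At an unadjusted p under 0.05, 5 of the 5 were lower and 0 higher, against 3.36% and 3.22% of all genes tested. For 5 of the 5 the groups did not overlap with WT on top, and for 0 with *Crlf2*-/- on top, against 6.37% and 5.37% of all genes tested. The log2 fold change was -0.5 or lower for 5 of the 5, against 3.29% of all genes tested. For each of the 5, the exact permutation test (two-sided) gave p = 0.1, and a design of 3 against 3 cannot give a smaller one. The median log2 fold change of the 5 was -1.29, where that of all genes tested was -0.0042. The 5 genes are not independent of each other, since young red cells carry mRNA of all 5 and the globins share much of their sequence within pairs. The counts of 5 of the 5 are therefore not 5 separate observations. With each library left out in turn, the log2 fold changes ranged from -1.58 to -1.04 for *Hbb-bs*, from -1.54 to -1.11 for *Hba-a1*, from -1.49 to -1.15 for *Hbb-bt*, from -1.28 to -1.06 for *Hba-a2* and from -1.08 to -0.82 for *Alas2*.

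As counted in the deposited values, the 4 globin genes took a small share of each library. They held 0.0251% of the fragments on listed genes in WT replicate 1 (95% interval 0.0244% to 0.0258%, exact Clopper-Pearson), 0.0332% in replicate 2 (0.0324% to 0.034%) and 0.0205% in replicate 3 (0.0198% to 0.0211%). In *Crlf2*-/- libraries they held 0.00774% in replicate 1 (0.00735% to 0.00815%), 0.0148% in replicate 2 (0.0142% to 0.0153%) and 0.01% in replicate 3 (0.00956% to 0.0105%). No interval overlapped that of another library, and the intervals cover counting error only. The mean share was 0.0263% ± 0.00643 (SD, n = 3) in WT and 0.0108% ± 0.00358 (SD, n = 3) in *Crlf2*-/- hearts, a ratio of 2.42, and leaving out single libraries gave ratios from 2.10 to 2.96.

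**Figure D2:**
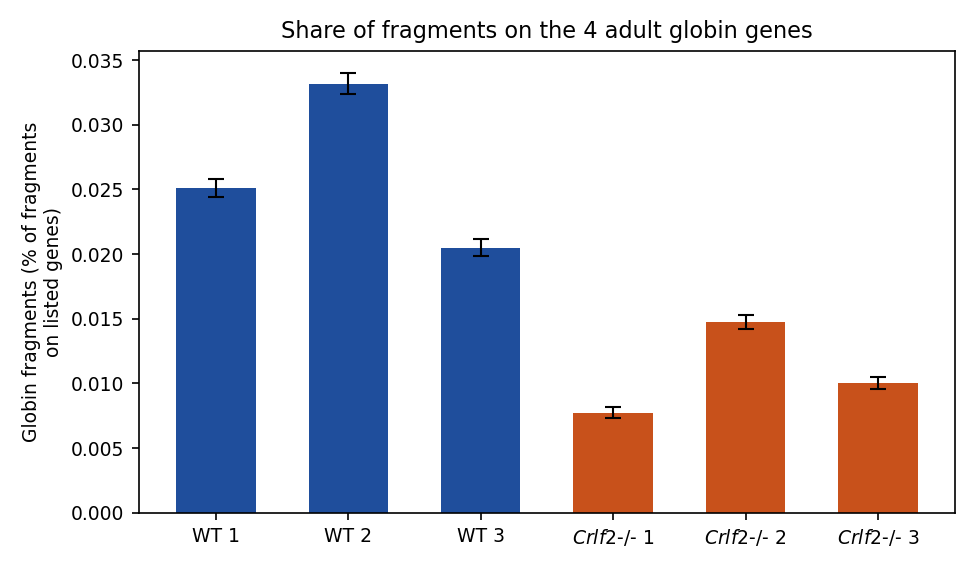
Percent of fragments on listed genes that lay on the 4 adult globin genes, by library; whiskers are 95% exact binomial intervals. The 3 WT libraries lie between 0.0205% and 0.0332%, above the 3 *Crlf2*-/- libraries, which lie between 0.00774% and 0.0148%.

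The spread between mice within a group was wider than counting error for the abundant globins. For *Hbb-bs* the coefficient of variation was 25.4% in WT and 39.6% in *Crlf2*-/- libraries, where counting alone gives 2.01% and 3.06%. For *Hba-a2* and *Alas2* in *Crlf2*-/- libraries the coefficients of variation, 6.01% and 7.53%, lay below the 10.7% and 11.8% that counting alone gives for a library of mean depth. The small SD of these 2 genes in *Crlf2*-/- hearts is thus less than counting error would produce on average, and their standard errors carry that limit.

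Ratios within a library do not depend on scaling between libraries. The summed beta to summed alpha globin FPKM was 1.35, 1.29 and 1.32 in WT and 1.20, 1.48 and 1.32 in *Crlf2*-/- libraries, so the groups overlapped in this ratio. *Alas2* per 100 globin FPKM was 0.957, 0.891 and 1.00 in WT and 1.43, 0.847 and 1.28 in *Crlf2*-/- libraries, and the groups overlapped. The ratio of *Hba-a1* to *Hba-a2* was 8.49, 8.78 and 6.90 in WT and 5.80, 10.8 and 6.62 in *Crlf2*-/- libraries. Among the latter, the 95% exact intervals of replicate 1 (4.60 to 7.39) and replicate 2 (8.66 to 13.6) did not overlap. The ratio of *Hbb-bs* to *Hbb-bt* ran from 7.16 to 10.5 over the 6 libraries, also with overlapping groups. These pair ratios compare levels per annotated length. The annotated 5′ end of *Hba-a1* lies 161 bases before its RefSeq start while that of *Hba-a2* lies 3 bases before. For *Hbb-bs* and *Hbb-bt* the distances are 168 and 73 bases.

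**Figure D3:**
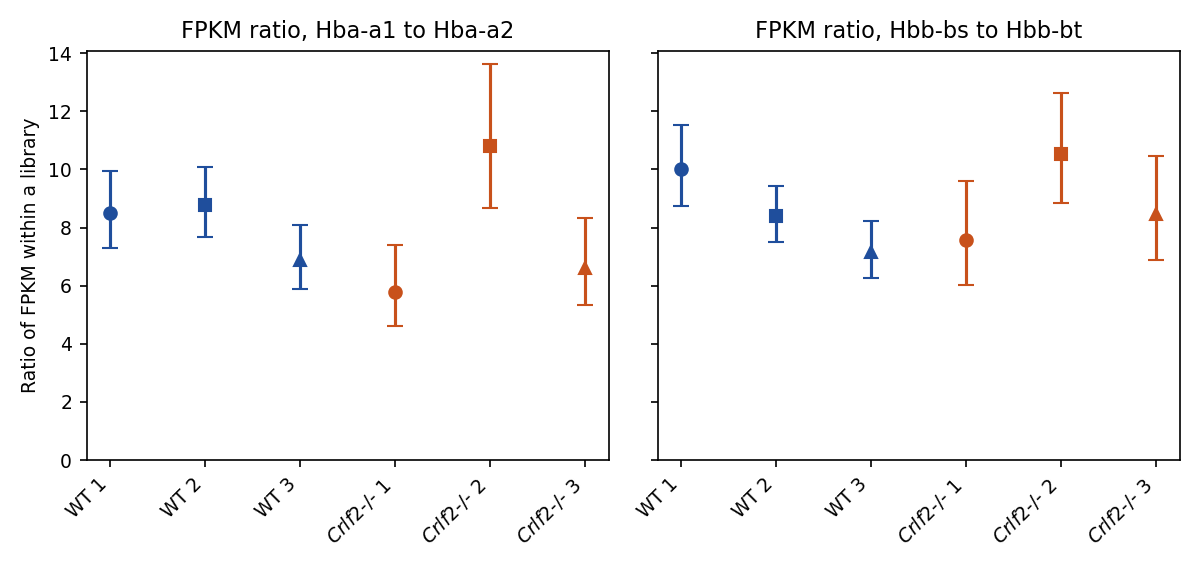
Ratio of FPKM of the 2 genes of each globin pair within each library, with 95% exact intervals from the fragment counts. Groups overlap for both pairs, and the alpha pair is lowest (5.80) in *Crlf2*-/- replicate 1 and highest (10.8) in *Crlf2*-/- replicate 2.

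Other genes that red cells and their precursors use were examined as lists. Of 10 other globins named, 8 are in the table, 6 of them at 0 in all libraries. The embryonic globin *Hbb-y* had 1 fragment in WT replicate 1 and *Hbq1b* had 1 in *Crlf2*-/- replicate 2. Of 18 red cell membrane and skeleton genes, 14 were tested, and 8 were lower and 6 higher, with a median log2 fold change of -0.02. Among them only *Aqp1*, the water channel of red cells and endothelium, had an unadjusted p under 0.05. *Aqp1* averaged 36.1 ± 4.97 FPKM in WT and 25.3 ± 3.14 FPKM in *Crlf2*-/- hearts (SD, n = 3; log2 fold change -0.51, limma adjusted p = 0.369). *Stom* and *Gypc*, with *Aqp1* the most abundant tested genes of the list, had log2 fold changes of -0.03 and 0.01. *Kel* and *Icam4*, which encode red cell surface proteins, had 0 fragments in all libraries.

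The genes that make haem in all cells were near a log2 fold change of 0. Of 13 genes of haem synthesis and mitochondrial iron outside the members, 13 were tested, 7 were lower and 6 higher, the median log2 fold change was -0.01, and 0 had an unadjusted p under 0.05 (smallest adjusted p = 0.94 from limma, 0 past the threshold). *Alas1*, the housekeeping form of the enzyme that *Alas2* encodes, was at 6.99 ± 0.288 FPKM in WT and 6.79 ± 0.628 FPKM in *Crlf2*-/- hearts (SD, n = 3). *Fech*, which inserts iron into protoporphyrin to form haem, was at 20.8 ± 0.246 and 20.9 ± 1.36 FPKM. *Slc25a39* and *Tmem14c*, mitochondrial membrane proteins, had log2 fold changes of 0.10 and -0.07.

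Of 17 late erythroid and reticulocyte genes, 13 were tested, 8 were lower and 5 higher, with a median log2 fold change of -0.04. The most abundant were the peroxiredoxin *Prdx2* (log2 fold change -0.13), the mitophagy receptor *Bnip3l* (-0.12) and *Ube2l6*, a conjugating enzyme also induced by interferon. *Ube2l6* had the only unadjusted p under 0.05 in the list and was higher, at 21.99 ± 1.34 FPKM in WT and 34.9 ± 6.68 FPKM in *Crlf2*-/- hearts (SD, n = 3, adjusted p = 0.254 from limma). *Car1*, a carbonic anhydrase of red cells, had at most 2 fragments in any library. Many genes of this list and of haem synthesis are also used by other cell types.

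Regulators of red cell precursors ranged from almost no fragments to levels above that of *Alas2*. Of 10 erythroid transcription factors and receptor genes, 7 were tested, of which 0 were lower and 7 higher, with a median log2 fold change of 0.21 (0.07 without WT replicate 3) and 0 at an unadjusted p under 0.05. Relative to the WT mean of each gene, the list's median was -0.09 to 0.05 in WT libraries and 0.14 to 0.27 in *Crlf2*-/- libraries. The groups did not overlap in this median, with *Crlf2*-/- on top, but 0 of the 7 tested genes had groups without overlap. With a pseudocount of 1 the median log2 fold change was 0.06. *Gata1*, the master factor of the red cell line, had at most 2 fragments in any library and *Klf1* at most 10. *Lmo2*, *Zfpm1* and *Tal1*, which endothelial cells also express in part, had log2 fold changes of 0.05, 0.25 and 0.0003. The erythropoietin receptor *Epor* was at 0.69 ± 0.315 FPKM in WT and 0.796 ± 0.148 FPKM in *Crlf2*-/- hearts (SD, n = 3).

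Genes that clear haemoglobin and haem were also listed. Of 12 genes, 12 were tested, 6 were lower and 6 higher, and the median log2 fold change was -0.0045. The ferritin chains *Fth1* and *Ftl1*, which store the iron released from haem, had log2 fold changes of 0.01 and -0.02. *Hmox1*, the inducible haem oxygenase, was at 92.5 ± 36.1 FPKM in WT and 112 ± 44.2 FPKM in *Crlf2*-/- hearts (SD, n = 3), and *Cd163*, the macrophage receptor for haemoglobin bound to haptoglobin, was at 1.69 ± 0.226 and 1.61 ± 0.651 FPKM. Haptoglobin itself (*Hp*), named after its values were seen, was at 46.4, 53.5 and 17.7 FPKM in WT and 17.2, 14.2 and 21.8 FPKM in *Crlf2*-/- libraries, with overlapping groups (log2 fold change -1.01, unadjusted p = 0.0315, adjusted p = 0.689 from limma).

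**Figure D4:**
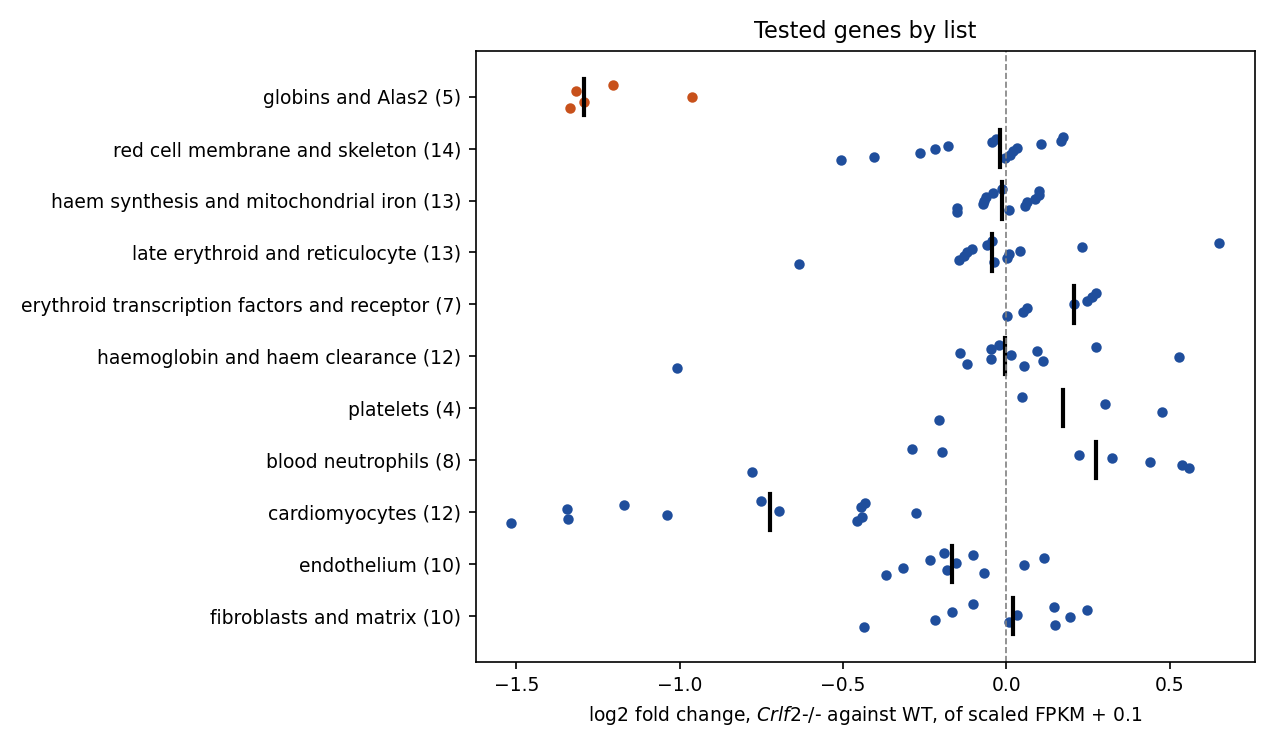
Log2 fold change of *Crlf2*-/- against WT hearts, on the scaled log2(FPKM + 0.1) scale, for each tested gene (points) by list, with the list's median (black bar) and the number of tested genes in brackets. The 4 globins and *Alas2* lie between -1.34 and -0.96, and of the other lists the cardiomyocyte list has the lowest median, -0.72. Within the cardiomyocyte list *Myl3* is lowest, at -1.51.

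Markers of other blood cells and of heart tissue were set beside the globins. Of 12 platelet genes, 4 were tested, 1 lower and 3 higher, with a median log2 fold change of 0.17 (0.02 without WT replicate 3). The platelet chemokine *Pf4*, which macrophages also express, was at 55.3 ± 25.2 FPKM in WT and 73.6 ± 18.8 FPKM in *Crlf2*-/- hearts (SD, n = 3), while *Ppbp* was at 1.08 ± 0.292 and 0.937 ± 0.327 FPKM and *Itga2b* had a log2 fold change of 0.05. Of 13 neutrophil genes, 8 were tested, 3 lower and 5 higher, with a median of 0.27 (0.04 without WT replicate 2 and 0.01 without WT replicate 3), and their summed level was 18.1 to 31.7 FPKM in WT and 19.8 to 27.2 FPKM in *Crlf2*-/- libraries. The neutrophil-defining gene *Ly6g* was below the filter. *Csf3r*, *S100a9* and *S100a8* had log2 fold changes of 0.22, -0.29 and 0.44. None of the tested platelet or neutrophil genes had an unadjusted p under 0.05 (0 of 4 and 0 of 8, limma).

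The cardiomyocyte list had the lowest median of the other lists. Of its 12 genes, 12 had a negative log2 fold change, 5 of them at an unadjusted p under 0.05 and 0 past the threshold, with a median log2 fold change of -0.72 and no defining marker at 0. Its summed level was 1282 to 2352 FPKM in WT and 877 to 1653 FPKM in *Crlf2*-/- libraries. *Mb*, which encodes myoglobin, the oxygen-binding protein of muscle, was at 219 ± 49.6 FPKM in WT and 117 ± 71.2 FPKM in *Crlf2*-/- hearts (SD, n = 3). *Actc1* and *Atp2a2* had log2 fold changes of -0.69 and -0.45. The lowest of the list were *Myl3* (-1.51), *Myl2* (-1.34), *Tnni3* (-1.34) and *Myh6* (-1.17), with *Mb* at -1.04. The globins and *Alas2* lay between -1.34 and -0.96, so a fall of this size was not particular to them. *Myl2* had the smallest adjusted p of the list (0.391, limma). For *Ckm*, muscle creatine kinase, the mean FPKM ran the other way (9.10 ± 2.98 in WT and 12.1 ± 14.3 in *Crlf2*-/- hearts, SD, n = 3), since *Crlf2*-/- replicate 2 stood at 28.3 FPKM, and its log2 fold change was -0.44 ± 1.04 (SE). Relative to the WT mean of each gene, the list's median was -0.49, 0.20 and 0.23 in WT and -1.37, -1.16 and -0.13 in *Crlf2*-/- libraries, and the groups overlapped. In the same order of libraries, the median of the globins and *Alas2* was -0.07, 0.37 and -0.23 in WT and -1.63, -0.92 and -1.35 in *Crlf2*-/- libraries. The part of tissue composition in the globin difference was not tested.

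The endothelial list had 8 of 10 genes lower and a median of -0.17, and its summed level was 193 to 215 FPKM in WT and 175 to 186 FPKM in *Crlf2*-/- libraries, without overlap. *Tek* was the only endothelial gene with an unadjusted p under 0.05, and it was lower (log2 fold change -0.32, limma adjusted p = 0.595). *Cdh5*, *Pecam1* and *Esam* had log2 fold changes of -0.10, -0.19 and -0.23. The fibroblast and matrix list had a median of 0.02, with 4 of 10 genes lower. Its most abundant genes *Col1a1*, *Sparc* and *Col3a1* had log2 fold changes of 0.25, 0.03 and 0.0073. For *Col1a1* the groups did not overlap, with *Crlf2*-/- on top. *Tcf21*, a transcription factor of cardiac fibroblasts, was the only gene of the list with an unadjusted p under 0.05, at 26.8 ± 2.09 FPKM in WT and 19.999 ± 4.33 FPKM in *Crlf2*-/- hearts (SD, n = 3; log2 fold change -0.44, limma adjusted p = 0.65), without overlap between the groups. The part of the endothelial list in the globin difference was not tested either.

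**Figure D5:**
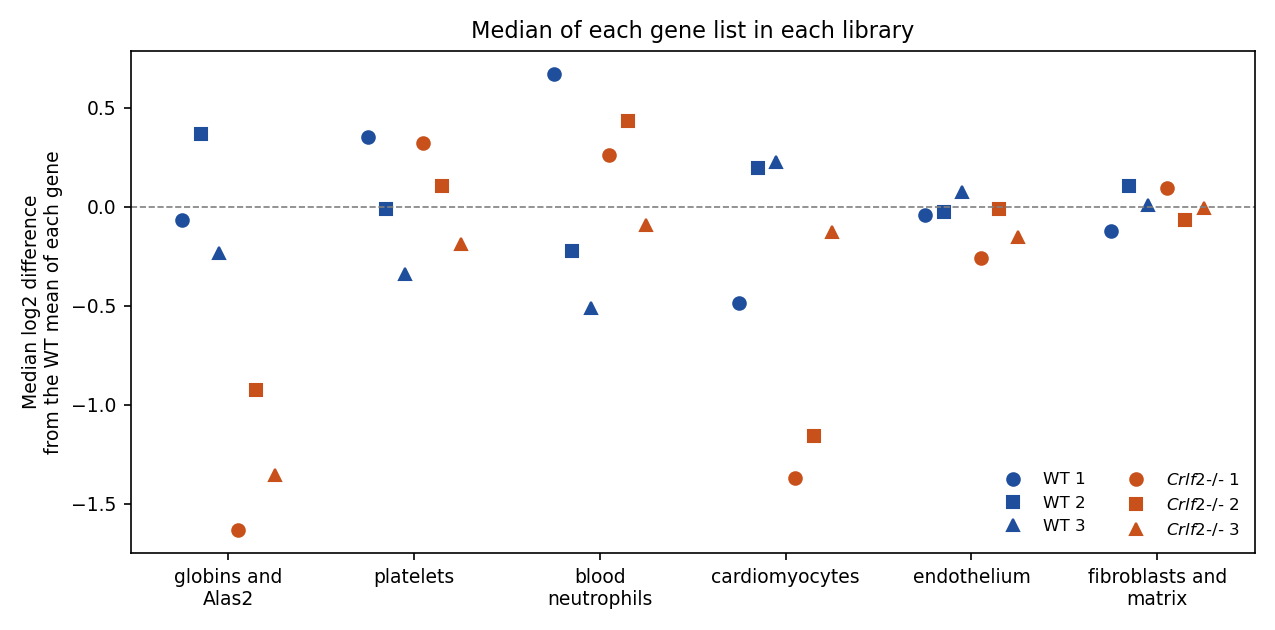
Median, over the tested genes of a list, of the log2 difference from the gene's WT mean, for each library. The globins and *Alas2* separate the groups, with *Crlf2*-/- libraries from -1.63 to -0.92, and for platelets, neutrophils, cardiomyocytes, endothelium and fibroblasts the groups overlap.

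Genes with a pattern over the 6 libraries most like that of the 5 tested members were sought among all other tested genes by Pearson's r with the mean centred log2(FPKM + 0.1) of the members. The 10 most alike were *Ufd1*, *Acrbp*, *Atxn7l3b*, *Tmem176a*, *Zcchc9*, *Pld2*, *Trmt2b*, *Ccdc85a*, *Paf1* and *Wdr92*, with r from 0.979 to 0.998 over 6 libraries that share the group difference. None of the 10 is on a red cell list used here. Their log2 fold changes were small beside those of the members, from -0.64 for *Ccdc85a* to -0.08 for *Trmt2b*. The values of r are a description of these libraries.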

How the data were processed

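RNA of 3 WT and 3 *Crlf2*-/- infarcted hearts was sequenced as poly(A)-selected paired-end libraries. After trimming with fastp, the authors mapped reads with HISAT2 2.0.5 and summarised them with featureCounts. Their deposited table holds FPKM per library and the length of each gene. The submitters' processing notes name mm10 and also the human build hg38; the gene positions are those of GRCm38. The table held 0 columns of other samples.

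Deposited FPKM multiplied by gene length were whole multiples of 1 step per library for 100% of nonzero values (within 0.01 fragments, or a millionth of large values), which gave the fragments. Library scaling used trimmed means of M values of these fragments. log2(scaled FPKM + 0.1) was tested with limma 3.58.1 in R 4.3.3 (lmFit, eBayes with trend and robust) over 15520 genes that reached 10 fragments in 3 or more libraries and 15 in all, and the test was checked on simulated data. Levels are deposited FPKM, and fold changes understate the change of low genes. P-values measure the spread between these samples, each labelled as its own library. The members and lists were chosen with earlier results of these data known. Named genes are the members, the 3 most abundant tested genes of each list, any past the thresholds, the 10 most alike genes and *Crlf2*; other list genes were named for their role or after their values were seen. Python 3.11.15 served for the other steps. Alternatives covered scaling, pseudocount, filter, voom, the replicate number as a block, library totals and each library left out.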

Additional observations from a re-analysis of the deposited data

How the results depend on the processing

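Under the other scalings, library totals, pseudocounts of 1 and 0.01, filters and voom on the fragments, with the replicate block, and with each library left out, the 5 tested members kept their lower direction, and 5 of 5 had an unadjusted p under 0.05. With voom, 0 of the 5 passed the threshold. The number of genes called across all genes, 2, became 6 with no filter on low genes, 1 with at least 10 fragments in every library, and between 1 and 14 with each library left out. It was 14 without *Crlf2*-/- replicate 1, 8 without WT replicate 3, and 1 without WT replicate 1, WT replicate 2 or *Crlf2*-/- replicate 3. The cause was not tested. The median of the transcription factor list, 0.21, became 0.06 with a pseudocount of 1 and 0.07 without WT replicate 3. With a pseudocount of 1 the neutrophil median, 0.27, became 0.11 and the platelet median, 0.17, became 0.06. With single libraries left out they ranged from 0.01 to 0.42 and from 0.02 to 0.23.

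The groups share replicate numbers, but the correlations between libraries of the same number, after subtracting group means, were -0.0163, 0.115 and 0.12, and 2 of 6 libraries correlated best with their own number. The mice were therefore treated as unpaired. With the replicate number as a block, 4 genes were called, 1 of them a member, *Hbb-bt* (log2 fold change -1.34, adjusted p = 0.0478 from limma). Over all alternatives the adjusted p of *Hba-a2* ranged from 0.0515 to 0.242. Depth limits *Slc4a1* and *Epb42*, which had at most 13 and 5 fragments in any library.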
